A study of Mus musculus with 6 samples.

Results

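A set of 10 genes of the chondro-osteogenic programme was followed in whole mouse aorta. They are 7 transcription factors (Sox9, Sox5, Sox6, Runx1, Runx2, Msx1 and Msx2) and 3 secreted proteins (Comp, Chad and Cytl1), taken by symbol from a table of 55487 genes, in which each symbol had 1 identifier. The controls (n = 3 libraries) were labelled LoxP, a name for the short sites between which Cre recombinase removes DNA, and the knockouts (n = 3 libraries) were labelled as lacking Ogt specifically in smooth muscle cells. Ogt encodes O-GlcNAc transferase, which places a single sugar on many proteins of the nucleus and cytoplasm. All titles carry SM22, another name of transgelin, whose promoter is widely used to drive Cre in smooth muscle. The sources used here do not give the Cre line, whether controls carried Cre, or the strain, age, sex and number of mice behind a library. The p-values below therefore measure the spread between these libraries, which may be partly technical.

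In cartilage, Sox9 switches on the genes of the cartilage matrix, and Sox5 and Sox6, which lack an activation domain of their own, bind beside it and strengthen its action. Runx2 is required for bone-forming osteoblasts and for the maturation of cartilage cells, and the homeodomain factors Msx1 and Msx2 act downstream of bone morphogenetic proteins. Smooth muscle cells of a calcifying artery are known to take up parts of this programme, and Runx2, Sox9 and Msx2 are commonly used as signs of it.

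Total counts were 12929900 to 13738958 in control replicates 1 and 3, 11845644 to 18218385 in the knockout libraries and 3038782 in control replicate 2. That library also stood apart in composition, with 10.2% of its counts from mitochondrial ribosomal RNA against 0.491% to 0.823% in the other 5. Ogt, which checks the labels, lay at 149.97 to 183.2 CPM (counts scaled to library size by trimmed mean of M values) in the controls and at 70.9 to 93.3 CPM in the knockouts. All knockout libraries were thus below all controls (log2 fold change -1.10 ± 0.15 SE, edgeR adjusted p = 0.0214), although the call was lost without control replicate 1 or any 1 knockout replicate (adjusted p = 0.0729 to 0.126). The 8 smooth muscle markers were abundant, at a summed 30380 to 36747 CPM in controls and 25397 to 30131 CPM in knockouts. Of the 8, 1 passed an edgeR adjusted p of 0.05, against 3.45% of all tested genes. It was Tagln, the transgelin gene, with means of 5553 CPM in controls and 2526 CPM in knockouts (log2 fold change -1.14, edgeR adjusted p = 0.033). Of the 10 chondrocyte markers, 7 were too low to test, and among these Matn1 had 0 counts in all 6 libraries together, Cnmd 1, Col9a2 5, Col9a1 13 and Col2a1 19. The other 3 were detected in every library, with Col11a2 at 7.76 to 14.5 CPM, Hapln1 at 6.67 to 17.2 CPM and Col9a3 at 0.882 to 1.36 CPM.

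No member passed the threshold for a difference between knockout and control aorta. Of the 10, 9 had enough counts to be tested, and edgeR's quasi-likelihood test called 0 of these 9 at an adjusted p threshold of 0.05, against 3.45% of all tested genes (1.9% higher and 1.56% lower). An unadjusted p under 0.05 was reached by 0 of the 9, against 22.7% of all tested genes. DESeq2 and limma-voom also called 0 of the 9, although DESeq2 gave no adjusted p for Msx2. With DESeq2 the unadjusted p was under 0.05 for 1 member (Cytl1), and with limma-voom for 1 other (Runx1). Runx1 was also under 0.05 with library quality weights, with the replicate number as a block, and without control replicate 2 or knockout replicate 3. Cytl1 was also under 0.05 without knockout replicate 3. With so few members, a count of 0 lies close to the background share and is no result about them. Log2 fold changes, knockout minus control, were positive for 2 and negative for 7, with a median of -0.16 beside -0.013 over all 16139 tested genes. For 5 members (Sox5, Sox6, Runx2, Msx1 and Comp) the 95% interval of the fold change lay wholly within 2-fold either way, while for Sox9, Runx1, Msx2 and Cytl1 it reached past 2-fold. These are messenger RNA levels, and protein amount or modification was not measured.

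**Figure D1:**
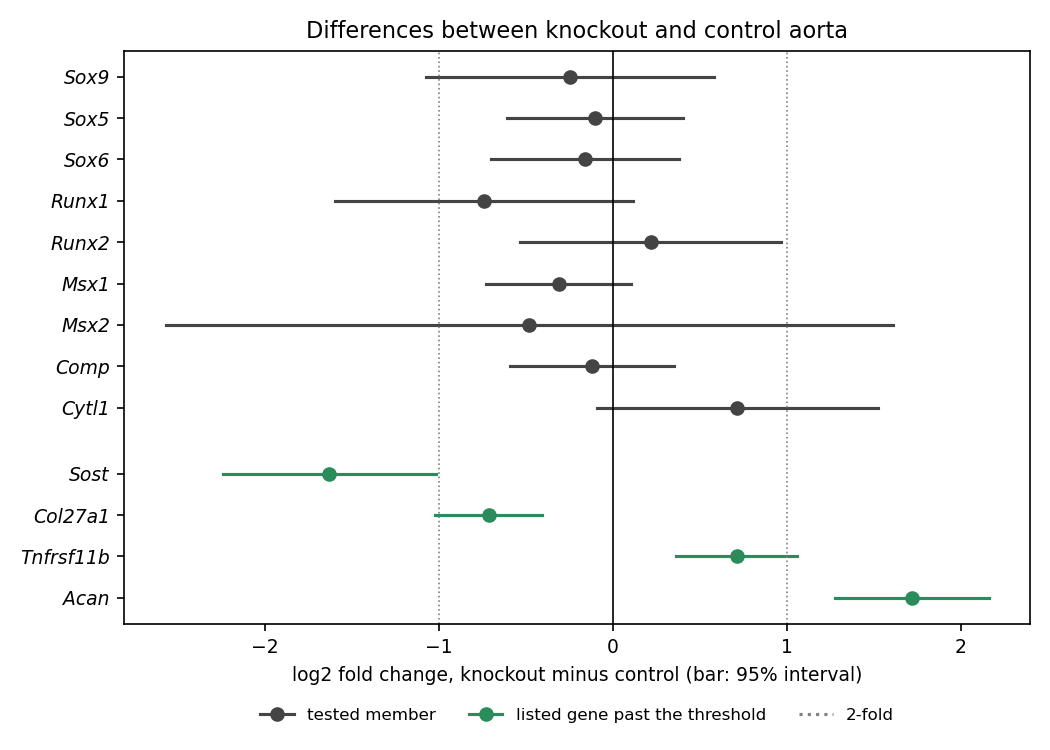
Log2 fold change, knockout minus control, with its 95% interval from edgeR, for the 9 tested members (dark) and for the 4 genes of related lists that passed the threshold (green). Every member's interval includes 0, and dotted lines mark a 2-fold change.

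The members covered a wide range of levels. On the deposited FPKM scale, which divides by a gene length, Cytl1 averaged 138 ± 60.3 over the 6 libraries (SD), above 98.5% of tested genes. Except for Sox9 and Chad, the length implied by counts and FPKM exceeded the exonic bases of the member's gene model, most of all for Runx2. The order of members with close levels therefore depends on the length used. Comp followed at 19.9 ± 4.86 and Msx1 at 2.45 ± 0.439 FPKM. Each of these 3 was separated from the next by ranges that did not overlap, Cytl1 being 6.90-fold above Comp. Sox6 (0.849 FPKM), Sox5 (0.798) and Sox9 (0.692) formed a group whose ranges overlapped. Below them Runx1 (0.302 FPKM), Chad (0.239), Msx2 (0.158) and Runx2 (0.101) also overlapped from neighbour to neighbour, as did Sox9 and Runx1. On this scale Runx2 lay above 0.886% of tested genes, and its rank and last place among the members depend on the length used. In bulk tissue a low level in every cell and a higher level in few cells cannot be told apart, and neither can fewer cells of a type and less RNA per cell.

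**Figure D2:**
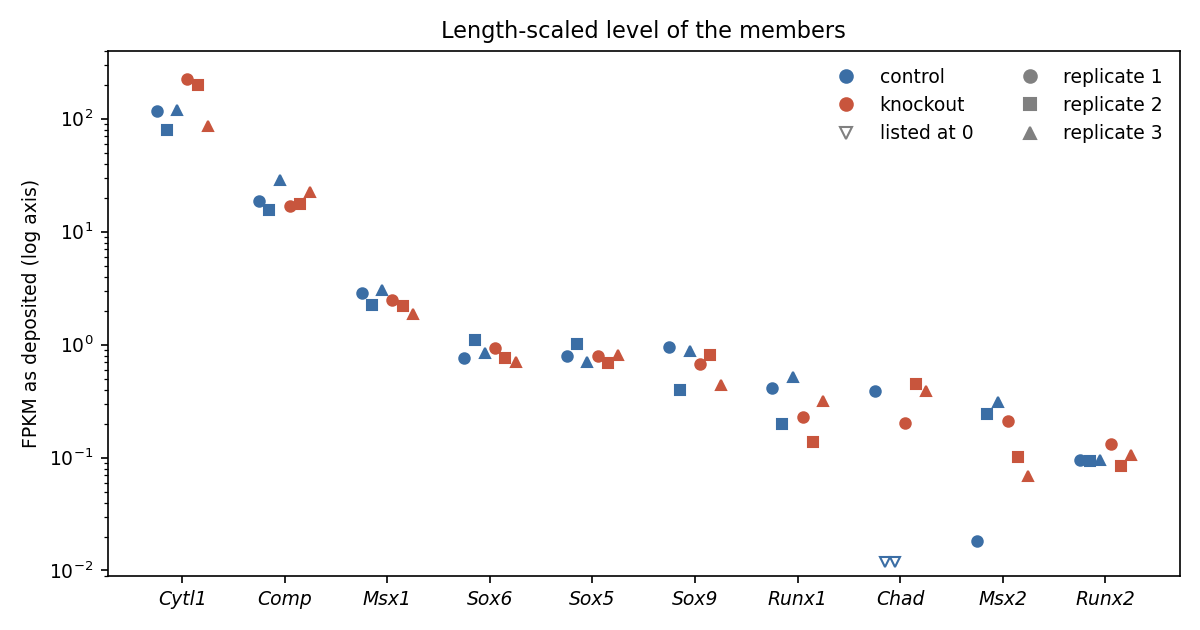
Deposited FPKM (log axis) of each member in the 3 control (blue) and 3 knockout (red) libraries, ordered by mean level, with symbols for the replicate. Cytl1 lies at 78.7 to 223 FPKM and Runx2 at 0.0850 to 0.133 FPKM, and open triangles mark the 2 control libraries in which Chad is listed at 0.

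Start-site sequence is shown for the member with the highest level, Cytl1, and for Runx1, whose 2 annotated start sites lie 128745 bases apart and are added together in a single count per gene. The 250 bases before each start are from RefSeq (GRCm38.p6), which held 14 such windows for 8 of the 10 members and none for Sox9 and Comp. Capitals mark the letters AGGAAG, 1 form of the sites bound by ETS factors, read on either strand. Shorter or other forms of these sites, such as GGAA with other flanking letters, were not searched and are not marked.
Cytl1, chr5:37735269-37735518, plus strand: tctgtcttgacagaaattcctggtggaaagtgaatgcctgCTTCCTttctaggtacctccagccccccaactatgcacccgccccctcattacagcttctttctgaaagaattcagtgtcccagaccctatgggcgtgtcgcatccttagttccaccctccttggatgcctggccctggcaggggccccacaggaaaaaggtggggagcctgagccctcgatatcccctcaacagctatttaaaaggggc
Runx1 distal start, chr16:92826075-92826324, minus strand: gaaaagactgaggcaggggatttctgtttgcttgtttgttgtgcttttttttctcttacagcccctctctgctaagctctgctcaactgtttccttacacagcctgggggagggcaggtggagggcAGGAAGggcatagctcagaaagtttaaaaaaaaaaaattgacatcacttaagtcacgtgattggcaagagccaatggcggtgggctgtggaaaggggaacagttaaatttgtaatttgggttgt
Runx1 proximal start, chr16:92697330-92697579, minus strand: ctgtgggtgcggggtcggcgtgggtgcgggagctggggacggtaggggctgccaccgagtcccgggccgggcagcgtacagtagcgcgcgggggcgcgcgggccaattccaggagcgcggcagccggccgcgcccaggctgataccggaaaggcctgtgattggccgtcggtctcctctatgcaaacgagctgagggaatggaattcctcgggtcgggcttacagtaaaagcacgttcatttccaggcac
The letters AGGAAG occurred 1 time in the Cytl1 window and 1 time in the distal Runx1 window. They occurred at least once in 29.5% of the 32851 windows of all genes. A core bound by RUNX proteins, TGTGGT, was found on either strand in none of these 3 windows and in 14.0% of all windows. The same held for AACAAT, a core bound by SOX proteins, found in 9.42% of all windows. It also held for TAATTG, bound by MSX-type homeodomains and found in 7.17%, and for the TATA box letters TATAAA, found in 12.4%. The proximal Runx1 window held 27 CpG dinucleotides and 67.6% G and C, the distal window 2 and 45.6%, and the Cytl1 window 4 and 54.8%. A match is a string of letters and not a measured binding site, and the table gives no separate value for the 2 Runx1 starts.

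Sox9 (chromosome 11, 112782224 to 112787760, GRCm38 as for all positions here), the activator of the cartilage genes, had 3.71, 1.85 and 3.42 CPM in the controls, listed here and below from replicate 1 to replicate 3, and 2.81, 3.41 and 1.799 CPM in the knockouts. The groups overlapped, with a low library in each (log2 fold change -0.25 ± 0.35 SE, edgeR adjusted p = 0.718), and without knockout replicate 3 the value was -0.013. The low control value is that of replicate 2 and rests on 5 counts, whose exact Poisson 95% interval, covering counting error only, runs from 0.602 to 4.33 CPM and takes in all other libraries. In knockout replicate 3, with 33 counts, the interval was 1.24 to 2.53 CPM, below the values of control replicates 1 and 3 and of both other knockouts.

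Sox5 (chromosome 6, 143828425 to 144781977) had 14.8, 22.2 and 12.9 CPM in the controls and 15.7, 13.6 and 15.9 CPM in the knockouts. Sox6 (chromosome 7, 115470872 to 116038796) had 18.4, 32.3 and 20.5 CPM in the controls and 24.2, 19.8 and 18.2 CPM in the knockouts. In both genes 1 library, control replicate 2, lay above the other 5, which were close together. The log2 fold changes of -0.10 ± 0.22 (SE, edgeR adjusted p = 0.815) for Sox5 and -0.16 ± 0.23 (adjusted p = 0.721) for Sox6 turned to 0.12 and 0.091 without that library, with adjusted p-values of 0.636 and 0.759. Both genes span a very long stretch of the genome, 953.6 kb and 567.9 kb. Among the 689 tested genes of at least 1 CPM that span 200 kb or more, 59.9% had their highest value in control replicate 2, against 20.1% of the 7892 genes under 20 kb. On the log2 scale that library lay a median 0.41 above the mean of the other controls for the long genes and -0.19 for the short ones. The pattern did not extend to every long member, since the same difference was -0.91 for Runx1 (224.7 kb) and 0.17 for Runx2 (318.8 kb). The part of gene span or of that library's composition in the Sox5 and Sox6 values was not tested. An antisense gene, Sox5os1, overlaps 9.25% of the exonic bases of Sox5 and had 0 counts.

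Runx1 (chromosome 16, 92601466 to 92826149), a regulator of blood cell formation that also acts early in cartilage, was the factor with the largest difference. It had 7.15, 4.08 and 9.01 CPM in the controls and 4.25, 2.59 and 5.78 CPM in the knockouts. Control replicates 1 and 3 were above every knockout library, while control replicate 2 lay within the knockout range. The log2 fold change was -0.74 ± 0.37 (SE; 95% interval -1.60 to 0.12) and did not pass the test (unadjusted p = 0.0807, edgeR adjusted p = 0.280). Over 12 alternative fits its value ran from -1.10 to -0.47, and the smallest adjusted p, 0.0591, came from limma with library quality weights. Macrophage markers had a summed level of 159.1 to 495.6 CPM over 6 genes in the controls and 326.4 to 395.8 CPM in the knockouts, and their part in the Runx1 values was not tested.

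Runx2 (chromosome 17, 44495987 to 44814797), the osteoblast regulator, had 1.58, 1.85 and 1.599 CPM in the controls and 2.38, 1.53 and 1.85 CPM in the knockouts. Knockout replicate 1 was the highest library and knockout replicate 2 the lowest, so the groups overlapped (log2 fold change 0.22 ± 0.32 SE, edgeR adjusted p = 0.732), and without knockout replicate 1 the value was 0.048. All 6 values were small, with 5 counts in control replicate 2 and 22 to 34 in the others. The 95% interval of the log2 fold change, -0.54 to 0.97, includes a rise of nearly 2-fold. Runx2os1, an antisense gene over 5.87% of the exonic bases of Runx2, had 6 counts in all. Cbfb, the partner that RUNX proteins need to bind DNA firmly, was at 28.4 ± 3.90 CPM in controls and 30.9 ± 3.78 CPM in knockouts (SD, n = 3, edgeR adjusted p = 0.688) and was chosen after its values were seen.

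Msx1 (chromosome 5, 37820485 to 37824583), a homeodomain factor, was the 1 tested member whose groups did not overlap, with 10.3, 9.64 and 10.9 CPM in the controls and 9.53, 8.47 and 7.09 CPM in the knockouts. Such separation was seen for 31.8% of all tested genes, and with the knockout below for 14.8%. The gap between the lowest control and the highest knockout library was small, and the log2 fold change of -0.31 ± 0.18 (SE, edgeR adjusted p = 0.347) did not pass the test. It stayed between -0.40 and -0.20 over 12 alternative fits.

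Msx2 (chromosome 13, 53466884 to 53473074), the paralogue more often followed in calcifying arteries, was 15.4-fold below Msx1 in mean FPKM. It had 1, 3 and 16 counts (0.0687, 1.11 and 1.16 CPM) in the controls and 10, 7 and 5 counts (0.851, 0.412 and 0.273 CPM) in the knockouts. Controls included both the lowest and the highest library. The log2 fold change of -0.48 ± 0.90 (SE, edgeR adjusted p = 0.788) turned to 0.68 without control replicate 3, and its 95% interval, -2.57 to 1.61, allows large changes in either direction. At this depth no difference in Msx2 was detected, and changes within that interval could not be resolved.

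**Figure D3:**
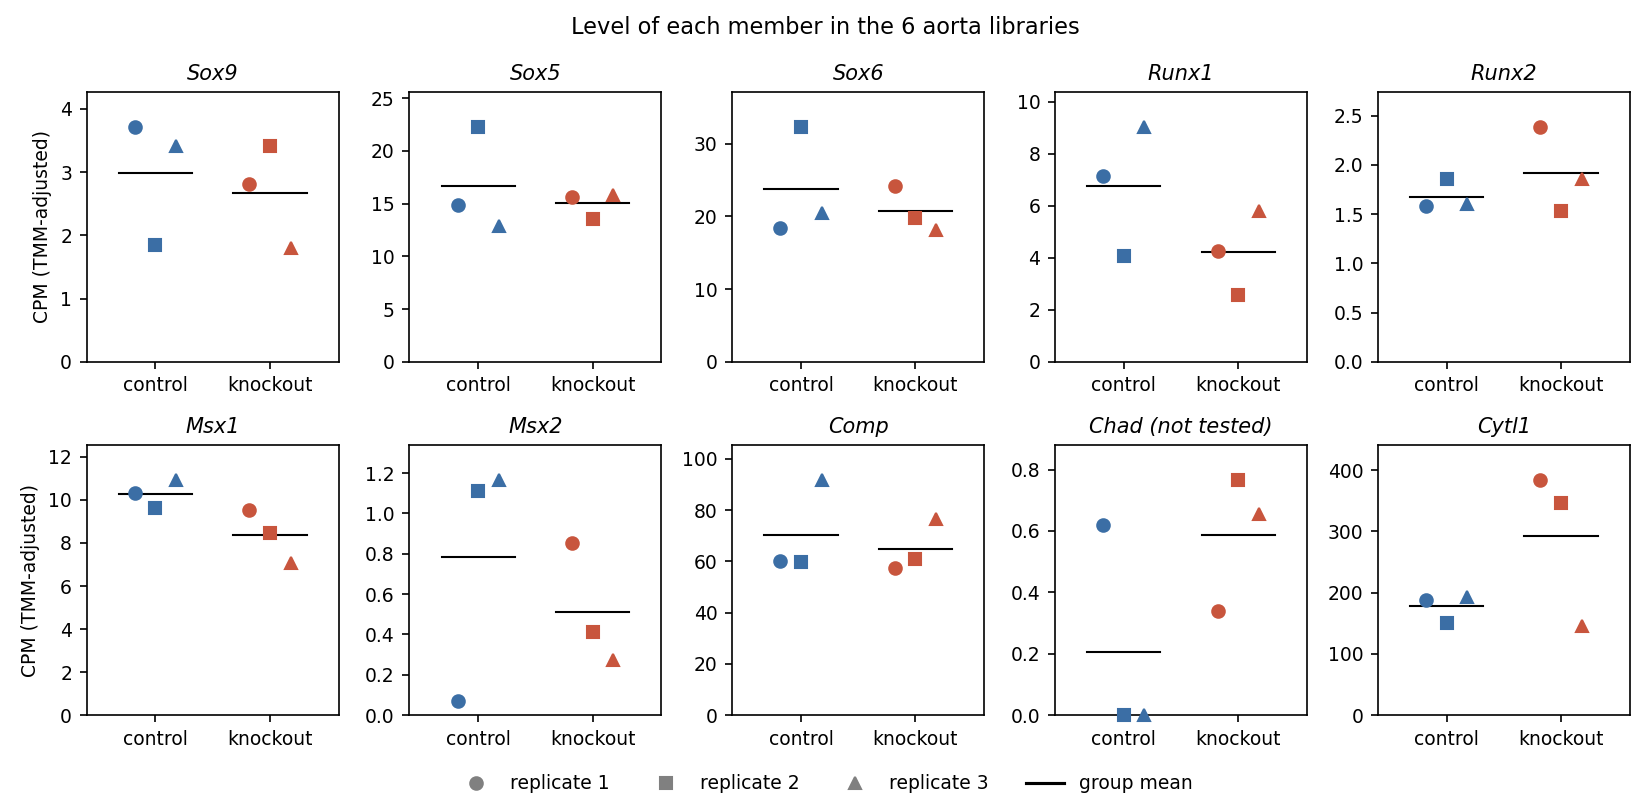
CPM of the 10 members in the 3 control and 3 knockout libraries, with each replicate as a symbol and the group mean as a line. Control replicate 2 (blue square) is the highest library for Sox5 and Sox6, and knockout replicates 1 and 2 are the highest for Cytl1, at 383 and 347 CPM.

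Comp (chromosome 8, 70373558 to 70382066) encodes a matrix glycoprotein of the thrombospondin family that binds collagen and is made in cartilage, tendon and vessel wall. It had 60.0, 59.7 and 91.5 CPM in the controls and 57.5, 60.8 and 76.7 CPM in the knockouts. Replicate 3 was the highest library of each group and the remaining 4 lay within 57.5 to 60.8 CPM. The log2 fold change was -0.12 ± 0.20 (SE, edgeR adjusted p = 0.760) and turned to 0.12 without control replicate 3 (adjusted p = 0.689). Of the 6 fibroblast markers, Dcn, Lum, Dpt and Pi16 were also highest in control replicate 3, as was the collagen-binding proteoglycan gene Fmod, at 280.8 CPM against 151.3 to 244.3 CPM in the other libraries. Col1a1 and Pdgfra were highest in control replicate 2. The summed fibroblast markers were at 2731 to 4215 CPM in controls and at 3133, 3032 and 2973 CPM in the knockouts. Their sum was thus lowest among knockouts in replicate 3, where Comp was highest. The part of fibroblast content in the Comp values was not tested.

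Among the other thrombospondins, which share Comp's carboxyl-terminal domains, 3 of 4 were tested and 0 passed the threshold in edgeR (1 at an unadjusted p under 0.05, and DESeq2 called that gene, Thbs3). Thbs3 lay at a mean of 97.0 ± 5.19 CPM among controls against 133.3 ± 9.63 CPM among knockouts (SD, n = 3, log2 fold change 0.46, edgeR adjusted p = 0.0715). Thbs2 had a log2 fold change of -0.29 (adjusted p = 0.258) and Thbs1 of 0.19 (adjusted p = 0.821).

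Chad (chromosome 11, 94565047 to 94569127), a leucine-rich repeat protein by which cartilage cells attach to their matrix, was too low to judge. It had 9, 0 and 0 counts in the controls and 4, 13 and 12 counts in the knockouts. A count of 0 in control replicate 2 allows a level of up to 1.11 CPM (3 counts), which is above every knockout library (0.340, 0.765 and 0.654 CPM), while a count of 0 in control replicate 3 allows up to 0.218 CPM. Control replicate 1, at 0.619 CPM, lay within the knockout range.

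Cytl1 (chromosome 5, 37735519 to 37739820) encodes a small secreted protein known from cartilage and from blood progenitor cells. It had 188.7, 151.3 and 192.5 CPM in the controls and 383.2, 347.1 and 145.6 CPM in the knockouts. Knockout replicates 1 and 2 were about alike and above all controls, whereas knockout replicate 3 was the lowest of the 6. Group means were 177.5 ± 22.8 and 292.0 ± 128.0 CPM (SD, n = 3), so that the spread within the knockout group exceeded the difference between groups. The log2 fold change was 0.72 ± 0.34 (SE; 95% interval -0.091 to 1.52) and did not pass the test (unadjusted p = 0.0742, edgeR adjusted p = 0.269). Without knockout replicate 3 it was 1.04 (adjusted p = 0.0667).

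Markers of endothelial cells, which line the vessel, were set beside Cytl1, a comparison chosen after the values were seen. All 7 markers (Pecam1, Cdh5, Vwf, Tek, Tie1, Sox17 and Sox18) were, like Cytl1, higher in knockout replicates 1 and 2 than in the other 4 libraries, and 4 of the 7 were lowest in knockout replicate 3. None of them passed the threshold (0 of 7 in edgeR, with 0 at an unadjusted p under 0.05, and 0 of 7 in DESeq2 and limma-voom). Their summed level was 731.5, 871.0 and 883.1 CPM in the controls and 1518, 1519 and 645.6 CPM in the knockouts. Pecam1, an adhesion molecule of endothelial junctions, was at 337.8, 341.9 and 405.2 CPM in the controls and 707.6, 717.8 and 306.8 CPM in the knockouts. Set against the marker sum, Cytl1 came to 25.8%, 17.4% and 21.8% in the controls and 25.2%, 22.9% and 22.6% in the knockouts. The highest and lowest libraries thus differed 2.63-fold in Cytl1 CPM and 1.49-fold in Cytl1 relative to the markers, and the relative values of the groups overlapped. No correlation is given, since knockout replicates 1 and 2 stand apart from the other libraries. The part of endothelial content in the Cytl1 values was not tested. The ratio cannot test it, since dividing by any genes with the same pattern over the libraries narrows the range.

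**Figure D4:**
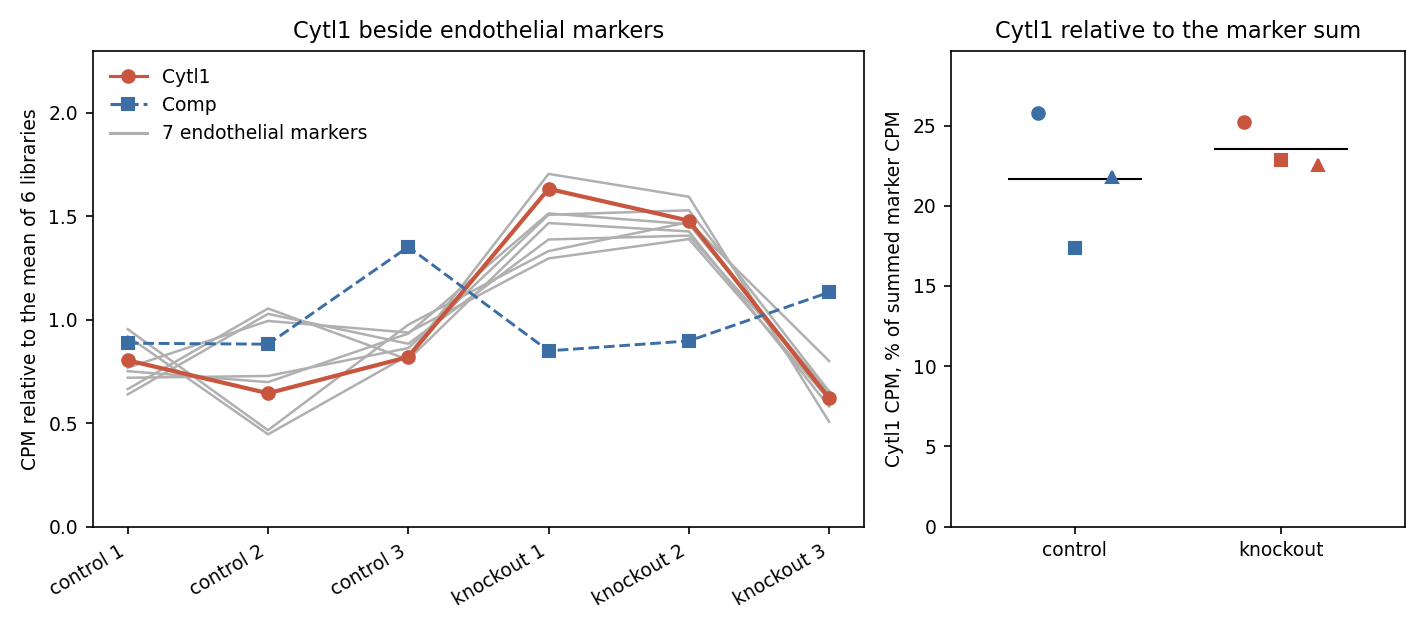
Left, CPM of Cytl1 (red), Comp (blue) and 7 endothelial markers (grey) in each library relative to the gene's own mean over the 6 libraries. Right, Cytl1 CPM as a percentage of the summed marker CPM, with each replicate as a symbol and the group mean as a line, at 17.4% to 25.8% in controls and 22.6% to 25.2% in knockouts.

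Genes that work beside the members were read from 4 lists with 73 genes, of which 47 were tested. Of the 47, 2 rose and 2 fell, which is 8.51% against 3.45% of all genes. The lists were chosen with earlier results of these data known, so these shares are not an independent comparison. Of 19 tested skeletal transcription factors and cofactors, 0 passed in edgeR, 3 had an unadjusted p under 0.05, and the median log2 fold change was -0.24. Gli2, a transcription factor of the hedgehog pathway, came closest, with 39.6 ± 7.91 CPM in controls and 20.4 ± 4.48 CPM in knockouts (SD, n = 3, log2 fold change -0.95, edgeR adjusted p = 0.0579), and DESeq2 called it lower. Foxc2 and Foxc1, forkhead factors of skeletal and vascular development and the list's most abundant members at 22.0 and 21.9 FPKM, had log2 fold changes of -0.45 and -0.38 (adjusted p = 0.159 and 0.182). The remaining 8 of the list's 27 genes, among them the osteoblast factor Sp7, were too low to test.

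Of 12 tested cartilage matrix genes, 1 rose and 1 fell in edgeR, 3 had an unadjusted p under 0.05, and the median was -0.25. Acan, the aggregating proteoglycan of cartilage and a known target of Sox9, had 19.0, 27.1 and 18.9 CPM in the controls and 79.1, 57.7 and 72.1 CPM in the knockouts (log2 fold change 1.72 ± 0.19 SE, edgeR adjusted p = 0.0133). Col27a1, a fibrillar collagen of cartilage, had 61.8, 46.7 and 51.8 CPM in the controls and 32.8, 32.5 and 32.9 CPM in the knockouts (log2 fold change -0.71 ± 0.13 SE, edgeR adjusted p = 0.0396). The groups were separate in both genes, and the knockout libraries of Col27a1 lay close together. Fmod, the most abundant of the list at 56.5 FPKM, had a log2 fold change of 0.12 (adjusted p = 0.807). The other 13 of 25 genes, including Col2a1, were too low to test.

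Of 13 tested genes of bone matrix and mineralisation, 1 rose and 1 fell in edgeR, with a median of 0.060. An unadjusted p under 0.05 was reached by 7 of the 13 in edgeR, against 22.7% of all tested genes. DESeq2 called 5 of them, namely Tnfrsf11b, Sost, Omd, Sparc and Phospho1, a phosphatase gene (edgeR log2 fold change -1.06, adjusted p = 0.115). Tnfrsf11b, the decoy receptor osteoprotegerin that restrains bone resorption, was higher (log2 fold change 0.71 ± 0.15 SE, edgeR adjusted p = 0.0492), and Sost, the secreted Wnt inhibitor sclerostin, was lower (-1.63 ± 0.26, adjusted p = 0.0295). Sparc, a collagen-binding matrix protein and the most abundant of the list at 576 FPKM, had a log2 fold change of 0.45 (adjusted p = 0.119). Just outside the threshold lay 1 gene in each direction, both chosen after their values were seen. Ibsp, the bone sialoprotein gene, had 0.412, 0 and 0.509 CPM in the controls and 2.38, 2.41 and 1.58 CPM in the knockouts (edgeR adjusted p = 0.0520). Omd, the small proteoglycan osteomodulin, had 17.6, 16.7 and 17.96 CPM in the controls and 10.04, 10.2 and 12.2 CPM in the knockouts (log2 fold change -0.69, adjusted p = 0.0520). With 1 library left out, the log2 fold change stayed at 1.62 to 1.88 for Acan, -0.79 to -0.60 for Col27a1, 0.64 to 0.84 for Tnfrsf11b and -1.90 to -1.41 for Sost. The calls were less stable than the values, and each was lost without control replicate 1 or any 1 knockout replicate, with adjusted p-values of 0.0504 to 0.0806 for Acan and up to 0.213 for the others, and without control replicate 3 those of Col27a1 (0.0658) and Tnfrsf11b (0.0558) were lost as well.

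**Figure D5:**
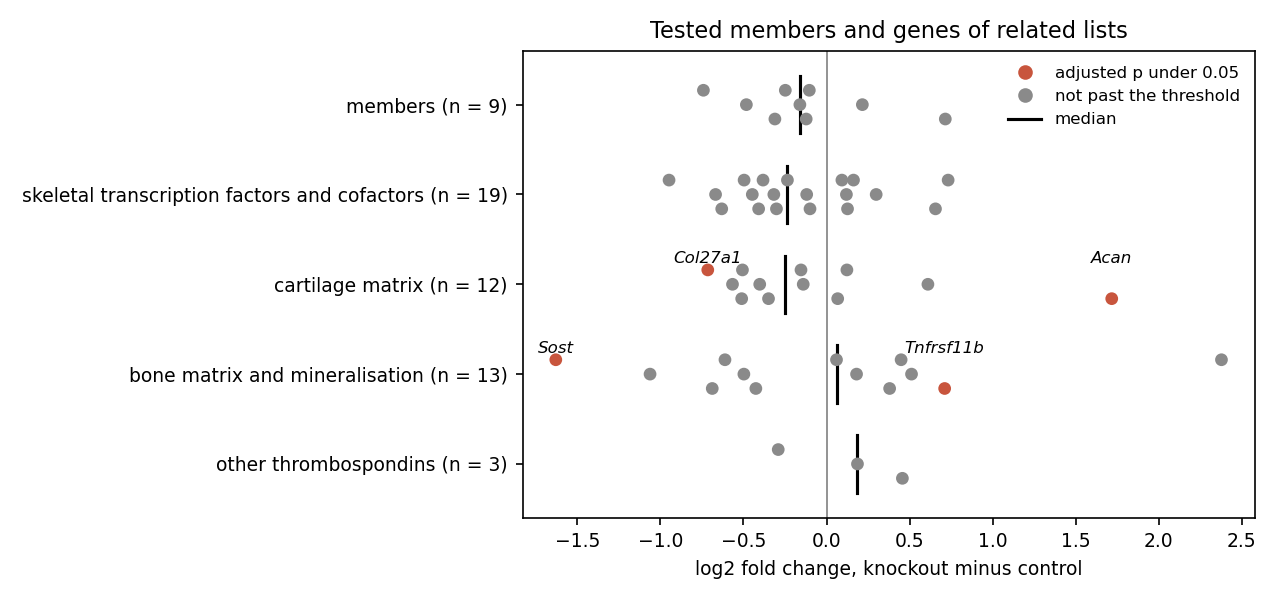
Log2 fold change, knockout minus control, of the 9 tested members and of the tested genes of 4 related lists, 1 point per gene, with the list's median as a black line. Red points passed an adjusted p of 0.05 in edgeR, which was the case for 0 members and for Acan, Col27a1, Tnfrsf11b and Sost.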

How the data were processed

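RNA of whole aorta was sequenced in 6 libraries (3 per group, from titles and genotype labels). CASAVA 1.8, HISAT2, SAMtools 1.3.1 and edgeR are listed in the submitters' processing notes, while the counter, annotation and strand rule are not, so overlapping and antisense genes are uncertain. The counts the authors deposited are whole numbers per gene. The FPKM the authors deposited use the same gene length in every library (within a relative 1.35e-05 over 7705 genes). The notes name GRCm39, yet 99.35% of 55141 identifiers shared with GENCODE M21 of GRCm38, members included, had identical positions, so positions are GRCm38.

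Counts were filtered (filterByExpr by group, 16139 genes left), TMM-scaled and compared without covariates in edgeR 4.0.16 (glmQLFit and glmQLFTest, robust; R 4.3.3), with Benjamini-Hochberg adjustment over these genes. The SE divides the log2 fold change by the root of F, and 95% intervals use the t quantile at edgeR's degrees of freedom. The fit was tested on simulated data. DESeq2 1.42.0, limma 3.58.1, RLE scaling, no filter, a replicate block and leaving out each library were alternatives. Control replicate 2 was the shallowest library, and members under 10 counts in any library (Sox9, Runx2, Msx2) are thinly covered. Each pair of libraries within a group differed by more than counting noise (chi-square per gene at least 15.47 on average). Columns left unmapped numbered 0.

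The members, 4 related lists and 14 marker lists were chosen with earlier results of these data known. Named are the members, Ogt and, of each related list, genes past the threshold, the 2 highest in FPKM and the 2 with the smallest p. Marker lists are given as summed CPM, with the markers past the threshold named.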

Additional observations from a re-analysis of the deposited data

How the results depend on the processing

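None of the 12 alternative fits called a member. Runx1, Runx2, Sox9, Msx1 and Cytl1 kept their direction in all 12, although Sox9 came to -0.013 without knockout replicate 3 and Runx2 to 0.048 without knockout replicate 1. Sox5 turned to 0.011 with limma-voom, 0.016 with library quality weights and 0.12 without control replicate 2, and Sox6 to 0.046 with quality weights and 0.091 without control replicate 2. Msx2 turned to 0.073 with limma-voom, 0.61 with quality weights and 0.68 without control replicate 3, and Comp to 0.12 without control replicate 3. With 1 library left out, the values ran from -0.26 to 0.12 for Sox5, -0.32 to 0.091 for Sox6, -1.22 to 0.68 for Msx2 and -0.25 to 0.12 for Comp. The cause was not tested.

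Over all genes, 557 calls became 1490 with DESeq2 and 1918 with quality weights, and 7 (without control replicate 1) to 911 (without control replicate 2) when 1 library was left out. Of the related lists, 4 calls became 9 with DESeq2, 9 with quality weights, and 0 to 6 with 1 library left out. The log2 fold change of Ogt ran from -1.23 to -1.02 with 1 library left out, and its call was lost without control replicate 1 or any 1 knockout replicate (edgeR adjusted p = 0.0729 to 0.126).

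With the replicate number as a block, 28 genes and 0 related genes were called, and Ogt was at -1.11 (edgeR adjusted p = 0.0572). Same-numbered libraries showed no clear shared deviation (correlations 0.0503, 0.0988 and -0.0636, and 3 of 6 libraries correlated best with their own number). With 3 libraries per group this check cannot decide whether the numbers pair the libraries. No label names a pair, and the numbers in the deposited column names do not repeat between the groups.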

Other observations

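Markers of bone and tendon cells had summed levels that did not overlap between the groups, as did those of smooth, skeletal and cardiac muscle and of brown adipocytes, and single tested genes did not overlap in 31.8% of cases. In the bone and tendon lists, 0 of 3 tested markers each passed the threshold in edgeR and 1 of 3 in each had an unadjusted p under 0.05. The 7 osteoblast markers summed to 5.93 to 13.1 CPM in controls and 15.3 to 16.6 CPM in knockouts, most of it from Phex, a peptidase of phosphate balance, while Bglap2 had 0 counts. The 4 tenocyte markers summed to 14.5 to 23.9 CPM in controls and 10.4 to 13.8 CPM in knockouts, with Kera at 0 counts. Scx, the transcription factor that marks tendon cells, was at 22.1, 11.1 and 12.4 CPM in the controls and 7.23, 6.53 and 7.47 CPM in the knockouts (log2 fold change -1.14 ± 0.27 SE, edgeR adjusted p = 0.0661). Mkx, the list's other tendon transcription factor, had the opposite sign, with 0.962, 1.48 and 3.13 CPM in the controls and 4.42, 2.65 and 4.96 CPM in the knockouts (log2 fold change 1.05, adjusted p = 0.243). DESeq2 called Scx, and limma-voom called the osteoblast marker Ibsp. The 10 chondrocyte markers summed to 16.7 to 25.8 CPM in controls and 19.1 to 28.0 CPM in knockouts, mostly from Col11a2 and Hapln1. Phex, Scx, Mkx, Col11a2 and Hapln1 were picked with their values in view.

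The other marker sums, controls first, were 519.5 to 709.1 and 468.2 to 677.7 CPM for white adipocytes and 107.6 to 158.3 and 59.3 to 67.4 CPM for brown adipocytes. They were 5.56 to 12.4 and 46.3 to 68.7 CPM for skeletal muscle, 14.5 to 26.2 and 30.7 to 46.9 CPM for cardiac muscle, and 15.1 to 29.7 and 18.6 to 38.7 CPM for Schwann cells. Of the brown adipocyte list 3 of 5 tested genes fell in edgeR, against 3.45% of all tested genes. They were Ucp1 (log2 fold change -2.45, edgeR adjusted p = 0.0023), Cox7a1 (-1.78) and Cox8b (-1.41), while Dio2 (-1.14) and Cidea (-0.34) did not pass. Of the skeletal muscle list 1 of 4 tested genes rose, the creatine kinase gene Ckm, which gave 42.5 to 62.96 CPM of the knockout sums, while Tnnt3 had a log2 fold change of 0.012. Of the cardiac list 1 of 6 rose, the actin gene Actc1 (15.2 to 22.4 CPM in knockouts), while Tnnt2 had a log2 fold change of -0.49 (edgeR adjusted p = 0.164). Lymphocyte markers summed to 0.742 to 2.47 and 2.18 to 3.9985 CPM, and mesothelium markers to 0.654 to 1.31 and 0.471 to 2.999 CPM.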
